A study of Mus musculus with 12 samples.

Results

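The comparison of the first Actb hairpin with its control hairpin rests on 4 of the 12 arrays of the series, 2 of NPC_shActb_1 and 2 of NPC_shEGFP, chosen by their titles because they lie on the same slide. Per the labels, the cells were mouse neural progenitor cells (NPCs) obtained by differentiation in vitro. They were kept on gelatin in RHB basal medium with EGF at 10 ng/ml and bFGF at 10 ng/ml. Per the study's methods, each hairpin was expressed from the H1 promoter of a retroviral pSilencer vector and infected cells were selected with puromycin, so the shEGFP cells carry a hairpin against EGFP in the same vector under the same selection. The shActb_1 cells carry a hairpin against Actb, the gene of β-actin. The series has 2 further groups that bear on this comparison. In shActb_2 a second Actb hairpin was used, measured on another slide, and in Mkl1 the cofactor was introduced with a retrovirus, measured on the same slide as its EGFP control and an Srf group and apart from the hairpin arrays. The study describes several NPC lines that go back to EB5 stem cells, some of them by way of induced pluripotent stem cells and with doxycycline-inducible reprogramming factors, and the labels do not say which line was on these arrays. The study calls the duplicates of its Actb knockdown arrays technical, and nothing in the labels names separate cultures. The p-values below therefore measure the spread between arrays, which may be technical, and the number of arrays limits the precision.

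β-Actin is the main actin of non-muscle cells, together with the γ-actin encoded by Actg1. Actin monomers bind Mkl1 and keep it in the cytoplasm, and Mkl1 that is free of monomers enters the nucleus and acts with the transcription factor Srf. Srf binds a sequence called the CArG box near genes of the contractile apparatus, the cytoskeleton and cell adhesion, and, with other cofactors, near immediate early genes. In smooth, skeletal and cardiac muscle this circuit maintains the muscle actins, calponin, transgelin and myosin light chains. The comparison asks which transcripts differ in NPCs when β-actin is depleted.

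Among named genes well above background on all 4 arrays, the largest increases with the first Actb hairpin were those of Acta2, Cnn1 and Acta1, which encode proteins of muscle filaments. The largest decreases among them were those of the collagen crosslinking enzyme Lox, the homeobox factor Meox2 and the Wnt antagonist Dkk1. A probe was called when its adjusted p was under 0.05 (limma, Benjamini-Hochberg over all probes tested) and its fold over 2. By this rule 582 of 36213 probes tested were called (1.61%), 176 higher and 406 lower with shActb_1. Per named gene, with the probe of the highest mean signal over all arrays, 118 of 15821 genes were called higher (0.746%) and 261 lower (1.65%), and the median log2 fold change of all genes was 0.02. Higher probes made up 30.2% of the calls. With each array scaled to its median, which moved the median of all probes by 0.10 on the log2 scale, they made up 41.9%, and with normexp background correction 40.4%. Without shActb_1 replicate 1, 279 probes were called higher.

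**Figure D1:**
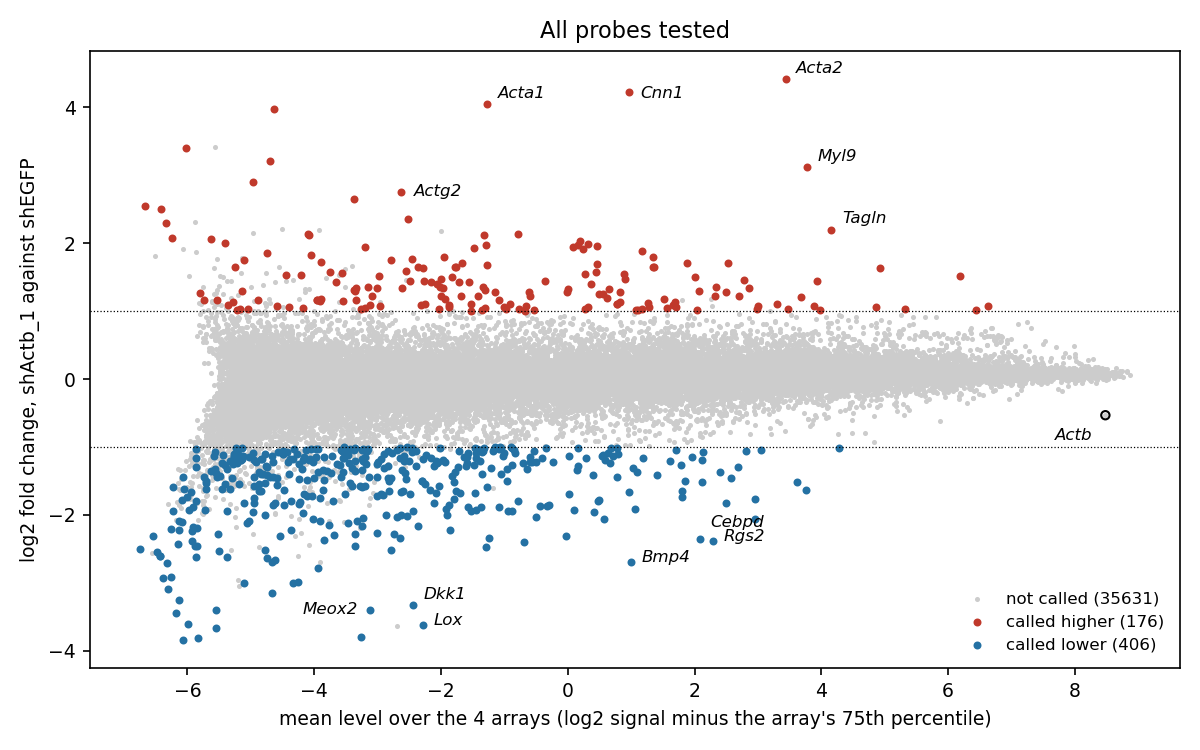
Log2 fold change of shActb_1 against shEGFP (vertical axis) against the mean level over the 4 arrays (horizontal axis, log2 signal minus the array's 75th percentile) for the 36213 probes tested, with 176 called higher in red, 406 called lower in blue and the dotted lines at a fold of 2. Acta2, Cnn1 and Acta1 lie at the top and Lox, Meox2 and Dkk1 near the bottom, and Actb, circled, lies below 0 at a high level without reaching a fold of 2.

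No spot was saturated on the 4 arrays. Of the 55681 probes, 62.7% and 69.1% were well above background, a call of the scanner software, on the shActb_1 arrays. On both shEGFP arrays it was 66.7%. The signal at the 75th percentile ran from 1039 to 1123, with both ends on the shActb_1 arrays. The duplicates correlated at r = 0.997 for shEGFP and r = 0.998 for shActb_1 across probes, which are not independent of each other, and 0.760% and 0.560% of probes differed by more than 2-fold between them. The shEGFP arrays lay in rows 4 and 3 of the slide column and the shActb_1 arrays in rows 2 and 1, so that row and hairpin cannot be told apart. Of the 582 calls, 428 were well above background on all 4 arrays, 23 higher probes were dark on both control arrays and 89 lower probes were dark on both shActb_1 arrays. Between groups of bulk RNA, fewer cells of one type and less RNA per cell cannot be told apart.

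Actb, the targeted gene (NM_007393), was lower on both shActb_1 arrays. Its level, given throughout as log2 signal minus the array's 75th percentile, was 8.74 and 8.75 with shEGFP and 8.23 and 8.20 with shActb_1. The groups did not overlap, and the difference was −0.53 on the log2 scale (SE 0.05, limma adjusted p = 0.00128), a fold of 1.45 that is below the fold of 2 set for a call. With the second hairpin, against the same controls, Actb was at −0.65. Actg1, the other actin of non-muscle cells (NM_009609), stood at 8.26 and 8.28 with shEGFP and 8.47 and 8.43 with shActb_1, a difference of 0.18 that did not pass the test (limma adjusted p = 0.196). Of the 4 other Actg1 probes 3 passed the adjusted p, below a fold of 2, with differences of 0.81, 0.75 and 0.32 (limma adjusted p = 0.00384, 0.00422 and 0.0489), and the fourth differed by 0.26 (adjusted p = 0.0552).

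The actins of muscle rose, whereas neither actin of non-muscle cells reached a fold of 2. Acta2, α-actin of smooth muscle (NM_007392), was at 1.26 and 1.20 with shEGFP and at 5.71 and 5.58 with shActb_1. It rose 21.4-fold (log2 4.42, SE 0.08, limma adjusted p = 7.68e-07), and both shActb_1 arrays lay far above both controls. Acta1, α-actin of skeletal muscle (NM_009606), was at −3.11 and −3.48 with shEGFP and at 0.82 and 0.69 with shActb_1, a rise of 16.6-fold (log2 4.05, SE 0.12, limma adjusted p = 1.17e-05). Actg2, γ-actin of enteric smooth muscle, was at −3.97 and −4.04 with shEGFP and at −1.13 and −1.37 with shActb_1, a rise of 6.75-fold (log2 2.76, SE 0.11). Actc1, the actin of heart muscle, was not well above background on either control array, at −7.54 and −7.03, and stood at −4.94 and −5.49 with shActb_1. It was at least 1.33-fold higher, and its fitted log2 difference of 2.07 (limma adjusted p = 0.00314) lost its call with normexp background correction and when only these 4 arrays entered the fit. In all, 4 of the 6 actin genes were called higher and none lower, with a median log2 fold change of 2.41. That median was 1.58 with Actc1 at its bound and 1.18 with normexp background correction.

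**Figure D2:**
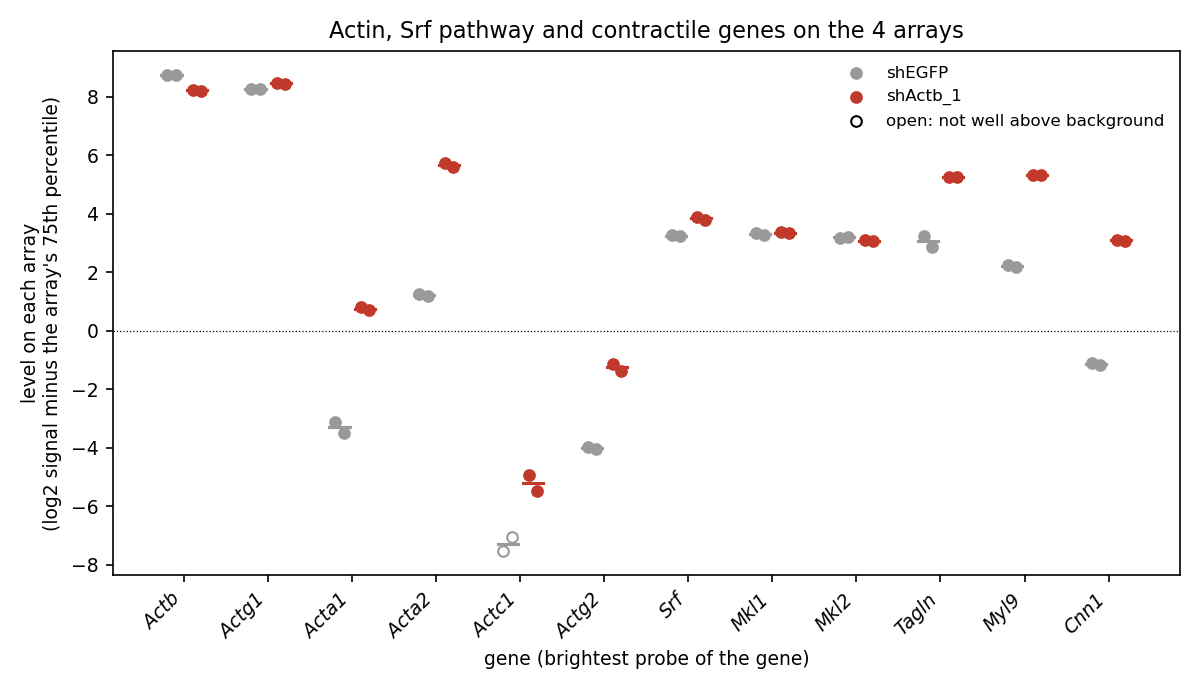
Level on each of the 4 arrays (log2 signal minus the array's 75th percentile, vertical axis) of 12 genes, with shEGFP in grey, shActb_1 in red, short bars for the mean of the 2 arrays and open points for arrays where the probe was not well above background. The points of Acta1, Acta2, Actg2, Tagln, Myl9 and Cnn1 are far apart between the groups, from 2.20 to 4.42 on the log2 scale, whereas those of Mkl1 and Mkl2 lie within 0.11 of each other on average for the probes plotted.

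On the list of contractile genes 9 of 29 tested were called higher and none lower, with a median log2 fold change of 0.55, or 0.41 with Actc1 at its bound. The 9 include the 4 muscle actins counted above, and of the 25 other members 5 were called higher, with a median of 0.32. Cnn1, calponin of smooth muscle (NM_009922), was at −1.12 and −1.17 with shEGFP and at 3.09 and 3.08 with shActb_1, a rise of 18.7-fold (log2 4.23, SE 0.07, limma adjusted p = 7.28e-07). Myl9, a regulatory light chain of smooth muscle myosin, was at 2.24 and 2.18 with shEGFP and at 5.33 on both shActb_1 arrays, a rise of 8.68-fold (log2 3.12, SE 0.08, limma adjusted p = 7.85e-06). Tagln, transgelin, was at 3.24 and 2.88 with shEGFP and at 5.27 and 5.25 with shActb_1, a rise of 4.59-fold (log2 2.20, SE 0.22). For each of these genes the shActb_1 arrays agreed closely and did not overlap the controls. Tagln2, the transgelin of non-muscle cells, rose by 1.63 on the log2 scale from 4.08 and 4.14 to 5.68 and 5.80, and its other probe by 1.70. Mybph, a myosin-binding protein of skeletal muscle, rose by 1.09, a call lost with normexp background correction. For Mybph the shEGFP arrays, at −3.70 and −3.62, lay below all 10 other arrays, and shActb_1, at −2.64 and −2.50, lay below the EGFP arrays at −2.11 and −2.02. Tropomyosins, which run along actin filaments, differed less, by 0.84 for Tpm2 and 0.70 for Tpm1, and smoothelin Smtn and calponin Cnn2 by 0.72 and 0.74. The 4 other probes of Tpm1 ran from −0.01 to 0.32. These 4 genes passed the adjusted p (limma) without reaching a fold of 2. Not every member of the list was higher, with −0.43 for Synpo2, −0.12 for Ldb3 (1.42 on its other probe), −0.10 for Tnnc1 and −0.05 for Des. Myh11, the myosin heavy chain of smooth muscle, was not well above background on any of the 4 arrays, and Lmod1 and Myl7 were not tested either.

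No gene of Srf and its partners reached a fold of 2. Srf was at 3.27 and 3.23 with shEGFP and at 3.89 and 3.80 with shActb_1, a difference of 0.60 (SE 0.13, limma adjusted p = 0.0267) and its other probe differed by 0.90 (limma adjusted p = 0.000284). Mkl1 differed by 0.06 (limma adjusted p = 0.859) and Mkl2 by −0.11 (limma adjusted p = 0.382). The 2 other probes of Mkl2 differed by −0.22 and −0.86 (limma adjusted p = 0.526 and 0.0572). None of the 6 tested genes of Srf and its cofactors was called, and their median was 0.07.

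Because Srf binds the CArG box, it was searched for in the 250 bases before the start of each gene, as CC, then A or T at each of the next 6 positions, then GG, which reads the same on both strands. The windows come from RefSeq on GRCm38.p6. The sites found in actin genes, Srf and Myl9 are shown because these genes carry the main result, with 20 bases on either side and the box in capitals. The strand is that of the gene. The table holds no promoter of Actb, Actg2, Tagln or Lox, which were therefore not searched.

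Acta1, chr8:123894819-123894868, minus strand, box from 73 bases before the start: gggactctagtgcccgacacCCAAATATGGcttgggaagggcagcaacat
Actc1, chr2:114052893-114052942, minus strand, box from 47 bases before the start: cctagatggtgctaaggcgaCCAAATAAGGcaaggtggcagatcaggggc
Actg1, chr11:120348556-120348605, minus strand, box from 90 bases before the start: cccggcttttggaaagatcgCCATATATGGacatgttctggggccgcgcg
Srf, chr17:46556215-46556264, minus strand, box from 82 bases before the start: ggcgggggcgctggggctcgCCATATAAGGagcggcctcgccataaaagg
Srf, chr17:46556195-46556244, minus strand, box from 62 bases before the start: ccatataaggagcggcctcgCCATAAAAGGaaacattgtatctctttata
Myl9, chr2:156775283-156775332, plus strand, box from 161 bases before the start: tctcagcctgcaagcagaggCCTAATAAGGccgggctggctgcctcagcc

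A box of the same kind stood before genes with very different responses, from 4.05 for Acta1 and 3.12 for Myl9 to 0.60 for Srf and 0.18 for Actg1 on the log2 scale. Among genes with a promoter in the table, 4 of 85 called higher held a box (4.71%), namely Acta1, Actc1, Myl9 and the LIM protein gene Fhl2. It was held by 3 of 179 called lower (1.68%), namely Cited1, Mesp2 and Tinag, by 198 of 12566 tested (1.58%) and by 439 of all 27025 (1.62%). In the contractile list 6 of 27 tested genes with a promoter held one (22.2%). Of these Cnn2, Myl6 and Ldb3 were not called on the probe used, while the other probe of Ldb3 was called higher at 1.42. Acta2 and Cnn1, which rose most, had no box of these letters in the window, nor had Dkk1, Meox2 and Bmp4. These shares are descriptions, with no test.

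Of the genes of stress fibres and focal adhesions, 2 of 31 tested were called higher and 1 lower, with a median of 0.32. Fhl2 rose by 1.11, from 2.69 and 2.79 to 3.83 and 3.88. Csrp1, another LIM protein of actin bundles, rose by 1.02, from 5.87 and 5.99 to 6.94 and 6.96, and its difference fell below a fold of 2 without shEGFP replicate 1 (0.96) and with quantile normalization (0.89). Pdlim3, which anchors actin filaments at the Z-disc of muscle, fell by 1.05, from −3.03 on both control arrays to −3.97 and −4.20. That call was lost under 5 alternatives, among them leaving out shActb_1 replicate 2 (−0.94) and shEGFP replicate 1 (−1.06, limma adjusted p = 0.0570). Pdlim7 at 0.92, Vcl (vinculin) at 0.59, Zyx (zyxin) at 0.53 and Flna (filamin A) at 0.52 passed the adjusted p without a fold of 2. Of the 2 other probes of Pdlim7, 1 was called higher at 1.11 (limma adjusted p = 0.00164) and 1 was at 0.52.

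Genes that turn actin filaments over were not among the calls. None of 35 tested genes of actin dynamics was called and the median was 0.16. Cfl1, cofilin, differed by 0.22, Arpc2 of the Arp2/3 complex by 0.25 and the monomer-binding Tmsb10 by 0.02, and the largest difference was 0.87 for Dstn, destrin. None of the 26 tested immediate early genes was called (median 0.09), with 0.81 for Jun, 0.81 for Fosl1 and −0.99 for Fos. Among 16 tested targets of Yap and Tead, 1 was called. Ankrd1, a muscle ankyrin repeat protein, rose by 1.64, from 0.46 and 0.63 to 2.16 and 2.22, while Ctgf differed by −0.43 and Cyr61 by 0.67.

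Other large increases fell outside the lists described so far. Glipr1 was at −5.00 and −4.41 with shEGFP and at −1.99 and −2.12 with shActb_1, a rise of 2.65 on the log2 scale (SE 0.24). Bmp8b, a Bmp ligand, rose by 2.13, Tnnt3, a troponin of fast skeletal muscle, by 2.12 and Serpinb2, an inhibitor of plasminogen activators, by 2.14. Dynap, Sh3bgr and 4930426L09Rik rose by 1.97, 1.97 and 1.95. For these genes the 2 shActb_1 arrays lay above both control arrays. For Bmp8b, Tnnt3 and Sh3bgr the control arrays also lay below all 10 other arrays, by a gap of 0.13 for Bmp8b, 0.88 and 0.84 for the 2 Tnnt3 probes and 0.30 and 0.11 for those of Sh3bgr, while both EGFP arrays stayed below shActb_1. Optc, opticin, was at −4.43 and −2.95 with shEGFP and at −1.26 and −1.42 with shActb_1. Its control arrays disagreed with each other, and its rise of 2.35 (limma adjusted p = 0.0135) lost the call without shActb_1 replicate 1 (adjusted p = 0.0888) or replicate 2 (adjusted p = 0.0722).

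Genes of the extracellular matrix were among the strongest decreases, with 5 of 35 tested called lower, 1 higher and a median of −0.25. Lox, the enzyme that crosslinks collagen and elastin (NM_010728), was at −0.51 and −0.44 with shEGFP and at −3.76 and −4.43 with shActb_1. It fell 12.3-fold (log2 −3.62, SE 0.21, limma adjusted p = 0.000147), and its other probe was at −3.80. Col11a1, a chain of a fibrillar collagen, fell by 2.47 on the log2 scale (from −0.15 and 0.04 to −2.39 and −2.66), Dcn, the proteoglycan decorin, by 1.96, Fbn2, a fibrillin, by 1.73 and Col2a1, the collagen of cartilage, by 1.46. The Col2a1 call was lost with normexp background correction. Col6a3, a chain of collagen VI, rose by 2.11, a call lost in the same way. Its shEGFP arrays, at −5.28 and −4.99, lay below all 10 others, and the EGFP arrays, at −3.23 and −3.65, were near shActb_1 at −2.78 and −3.26. The abundant matrix genes Col1a1, Col1a2, Sparc and Fn1 differed by −0.49, −0.25, −0.10 and 0.24 and were not called. Adamts5, a protease of aggrecan, fell by 2.78 (other probe −2.46), the cartilage protein Comp by 2.38 and the joint lubricant Prg4 by 2.45.

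Genes of Bmp and Wnt signalling were called in both directions, with Bmp8b, given above, among those called higher. Bmp4, a ligand that directs neural and mesodermal fates (NM_007554), was at 2.35 and 2.34 with shEGFP and at −0.25 and −0.43 with shActb_1, a decrease of 6.44-fold (log2 −2.69, SE 0.09, limma adjusted p = 1.62e-05). Id2, an inhibitor of bHLH factors that Bmp signals induce, fell by 1.15, from 2.52 and 2.54 to 1.56 and 1.20. The Id2 call was lost without shActb_1 replicate 2 (−0.97), shEGFP replicate 1 (−1.16, limma adjusted p = 0.0976) or shEGFP replicate 2 (−1.14, adjusted p = 0.0836). Its relatives Id1, Id3 and Id4 differed by −0.65, −0.79 and −0.64 and passed the adjusted p (limma) without a fold of 2. Inhbb, a subunit of activin, rose by 1.32. Over the list of Tgf-β and Bmp genes, 1 of 22 tested was called higher, 2 lower and the median was −0.13.

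Dkk1, a secreted antagonist of Wnt (NM_010051), was at −0.83 and −0.73 with shEGFP and at −4.11 and −4.09 with shActb_1 and fell by 3.32 on the log2 scale (SE 0.09, limma adjusted p = 8.56e-06). Dkk2 fell by 1.45, a call lost with normexp background correction, and Sfrp2, which also binds Wnt, by 1.57. Nkd1, an inhibitor inside the cell, rose by 1.48 on one probe and stood at 0.22 on the other, so its probes disagree. Sfrp1 was not well above background on the control arrays, at −6.68 and −6.15, and stood at −4.63 and −2.39 with shActb_1, where the arrays differ by more than 2 on the log2 scale. It was at least 4.32-fold higher, and this call was lost without shActb_1 replicate 2, shEGFP replicate 1 or shEGFP replicate 2 (limma adjusted p = 0.0599, 0.182 and 0.0949). Of 16 tested Wnt antagonists and targets, 2 were called higher and 3 lower, with a median of 0.27, and Dkk3 was at −0.96.

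Of the genes that mark mesenchyme, 5 of 18 tested were called lower and 1 higher, with a median of −0.34. Meox2, a homeobox factor of mesoderm (NM_008584), was at −1.54 and −1.31 with shEGFP and at −4.75 and −4.89 with shActb_1, a decrease of 10.5-fold (log2 −3.39, SE 0.12, limma adjusted p = 1.65e-05). Pdgfrb, the receptor of pericytes and fibroblasts, fell by 1.87, from 0.61 on both control arrays to −1.13 and −1.39, and Foxc1, a forkhead factor, by 1.27. Dcn, counted above with the matrix, is also on this list. Prrx2 fell by 1.06, from 3.36 and 3.34 to 2.43 and 2.14, a call lost with median scaling and without shActb_1 replicate 2 (−0.92), shEGFP replicate 1 (−1.05, limma adjusted p = 0.0770) or shEGFP replicate 2 (−1.07, adjusted p = 0.0613). Thy1, a surface glycoprotein of fibroblasts and neurons, rose by 1.63. Twist1, Zeb1 and Snai2 differed by −0.20, 0.28 and 0.35. The labels name the cells neural progenitors, and of 22 mesenchymal genes on the array 3 were not well above background on any of the 4 arrays, while the 18 tested were so on all 4.

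Further large decreases were found in other genes. Rgs2, which shortens G protein signals, was at 3.49 and 3.48 with shEGFP and at 1.08 and 1.13 with shActb_1, a decrease of 5.20-fold (log2 −2.38, SE 0.07). Cebpd, a bZIP factor of the acute response, was at 3.24 and 3.29 with shEGFP and at 0.86 and 0.97 with shActb_1, a decrease of 5.11-fold (log2 −2.35, SE 0.08). In both genes all 4 arrays were well above background and the duplicates agreed within 0.11. Pde1a, a phosphodiesterase, fell by 2.51, Plxdc1 by 2.40, Gprin3 by 2.33 and the ephrin receptor Epha3 by 2.31. Ptgfr, the receptor of prostaglandin F, fell by 2.34, but its control arrays were at −0.85 and −2.10, and the call was lost without shActb_1 replicate 1 (limma adjusted p = 0.0622) or replicate 2 (adjusted p = 0.0744). The chemokine Cxcl5 fell by 2.06, from 1.57 and 1.64 to −0.38 and −0.53, whereas Ccl2 was at 0.59 and Cxcl1 at −0.78 without a call. Among chemokines and serpins, 1 of 18 tested was called in each direction, Serpinb2 higher and Cxcl5 lower.

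The neural markers were set beside the label of the cells, with no test. On the shEGFP arrays the median level was −1.49 and −1.41 for the neural progenitor list. It was 1.65 and 1.64 for the mesenchyme list. Of the 24 neural progenitor markers 19 were tested, and Vim and Nes, intermediate filaments of progenitors, were well above background in both groups and differed by 0.10 and 0.47. Sox3, Olig2, Emx2, Nr2e1 and Ptprz1 did not pass the filter on dim probes. Slc1a3, the glutamate transporter of radial glia, fell by 1.30, from 1.72 and 1.62 to 0.33 and 0.41. Fabp7, the lipid-binding protein of radial glia, fell by 1.27, from −3.04 and −2.88 to −4.19 and −4.27, and Sox2, a factor of progenitor self-renewal, by 1.01, from 1.15 and 1.22 to 0.30 and 0.05. Sox2 was just past the fold of 2, and its call was lost without shActb_1 replicate 2 (−0.88) or shEGFP replicate 2 (−0.98), while that of Fabp7 was lost without the same arrays (limma adjusted p = 0.0559 and 0.0523). Both calls were also lost with normexp background correction, and that of Sox2 with median scaling. No progenitor marker was called higher and the median of the list was −0.20.

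Neuronal genes were split, with 3 of 21 tested called lower and 1 higher. Stmn2, a microtubule regulator of growing axons, fell by 1.41, from 2.17 and 2.07 to 0.82 and 0.59, the homeobox gene Dlx5 by 1.38 (a call lost with normexp background correction) and the dendritic Map2 by 1.27 (other probe −1.30). Nefl, the light neurofilament, rose by 1.28, from −0.74 and −0.56 to 0.55 and 0.70, and lost its call without shActb_1 replicate 2 (limma adjusted p = 0.0668) or shEGFP replicate 1 (adjusted p = 0.0727). Its shEGFP arrays lay below all 10 others, and the EGFP arrays were at 0.14 and 0.71. Tubb3 differed by 0.11 and Snap25 by −0.14. None of 18 tested genes of astrocytes and oligodendrocytes was called, with −0.79 for Clu and −0.41 for Aldoc. In the Notch pathway, Hey1, a target, fell by 1.28, from −1.75 and −1.76 to −3.02 and −3.05, a call also lost with that correction. The ligand Jag2 fell by 1.05 and the feedback inhibitor Nrarp rose by 1.33, each a call that a single array removed. Jag2 lost it without shActb_1 replicate 1, shActb_1 replicate 2 or shEGFP replicate 2 (−1.28, −0.81 and −0.73), and Nrarp without shActb_1 replicate 2, shEGFP replicate 1 or shEGFP replicate 2 (1.21, 1.30 and 1.36, limma adjusted p = 0.0735, 0.0727 and 0.0530). The shEGFP arrays of Nrarp, at −3.70 and −3.64, lay below all 10 others, and the EGFP arrays, at −3.18 and −2.44, reached shActb_1 at −2.46 and −2.22.

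No member was called in 7 lists beside those of actin dynamics, immediate early genes and Srf. They were glia, endothelium, myeloid cells, pluripotency, interferon response, cell cycle and stress response, with medians of −0.19, −0.20, −0.14, −0.07, −0.01, 0.17 and 0.22. Of 12 endothelial markers 7 were tested and 5 were dark on all 4 arrays, among them the endothelial cadherin Cdh5, and of 12 myeloid markers 7 were tested. Pou5f1 and Nanog, factors of the stem cells of origin, differed by 0.07 and −0.78. In the cell cycle list 27 of 31 genes had a positive sign, the largest at 0.86 for Ccne1, and Mki67 was at 0.20. Of the stress genes, 16 of 19 had a positive sign without a call.

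**Figure D3:**
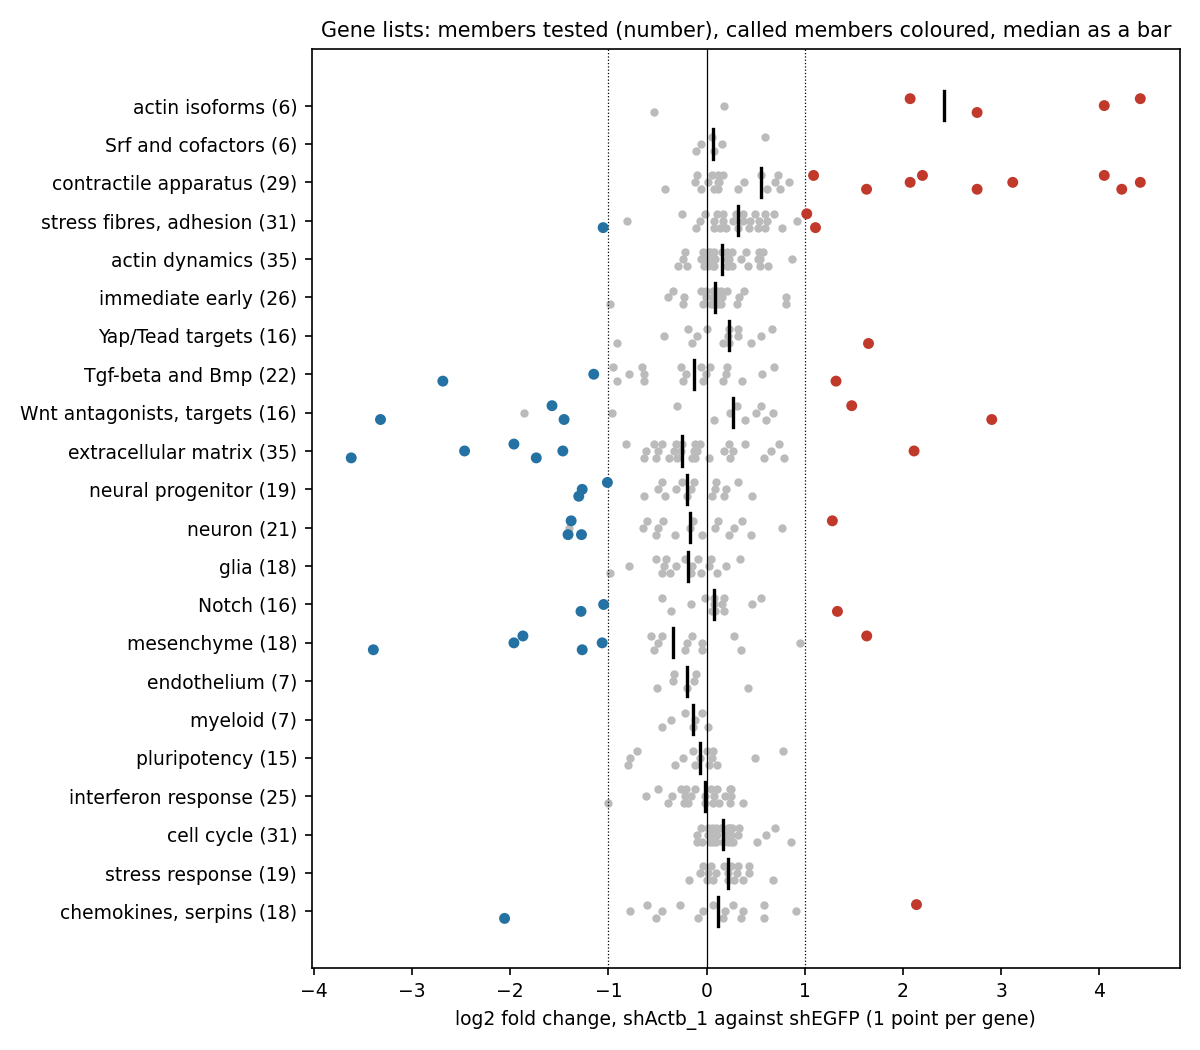
Log2 fold change of shActb_1 against shEGFP (horizontal axis) of the tested members of 22 gene lists, 1 point per gene, with called members in red or blue, others in grey, the median as a black bar and dotted lines at a fold of 2. The contractile list has 9 called members and all are higher, the lists of matrix and mesenchyme have 5 lower and 1 higher each, and the lists from endothelium and myeloid cells have none.

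Genes with several probes were compared probe by probe. Of 99 genes with at least 2 tested probes and at least 1 call, 36 were called on all of their tested probes and 63 had a probe that was not called. All tested probes had one sign for 92, 7 had probes of both signs and 0 were called in both directions. Probes lay far apart for Trim9 (−2.19 and 0.15) and Cyp2r1 (1.27 and 0.02), picked after their values were seen. All 3 probes were called for Lifr, the receptor of leukemia inhibitory factor (−1.34 to −1.01), for Tnfaip6, a hyaluronan-binding protein (−1.93 to −1.67), and for Vps25, a subunit of the endosomal complex ESCRT-II (1.47 to 1.79).

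Where a probe was not well above background on both arrays of one group, the fold is given as a bound, and a fitted log2 value beside it is no bound. Rassf9 was at −2.74 and −2.77 with shEGFP and at −5.82 and −5.67 with shActb_1, at least 7.04-fold lower (fitted log2 −2.99, limma adjusted p = 4.03e-05). Sncaip, which binds α-synuclein, was at least 3.91-fold lower (from −4.00 and −3.43 to −7.44 and −7.30). Kcnmb1, the β subunit of the calcium-activated potassium channel of smooth muscle, was at least 2.47-fold higher, from −7.62 and −7.82 to −4.41 and −4.23, a call lost with normexp background correction. Lipg, endothelial lipase, was at least 2.20-fold higher and Gpr149 at least 2.09-fold, both also lost with that correction. The other 6 with the largest bounds each lost their call without 1 array. Lce1g was at least 3.25-fold higher, with a limma adjusted p of 0.0717 without shActb_1 replicate 1, 0.0543 without shActb_1 replicate 2 and 0.0531 without shEGFP replicate 2. Hao1 was at least 2.25-fold higher and 8430436N08Rik at least 6.03-fold lower, and any of the 4 arrays removed the call (limma adjusted p from 0.0854 to 0.144 and from 0.0638 to 0.114). For Hao1 the shEGFP arrays, at −5.46 and −5.49, lay below all 10 others, and the EGFP arrays, at −3.93 and −4.81, lay on both sides of shActb_1 at −4.19 and −4.42. The shEGFP arrays also lay lowest for Kcnmb1 and Lipg, with both EGFP arrays below shActb_1. Cxcl13 was at least 5.12-fold lower (0.0905 and 0.0863 without shActb_1 replicate 1 or 2), Rarres1 at least 3.86-fold lower (0.182 and 0.155 without shEGFP replicate 1 or 2) and Slitrk1 at least 3.55-fold lower (0.0562 without shEGFP replicate 1).

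The second Actb hairpin was compared with the first directly, to see where 2 hairpins against the same gene gave different levels. In this contrast 1781 of 35408 probes were called (5.03%), with 35.7% of them higher with shActb_2, or 48.0% after median scaling or quantile normalization. The 2 groups lie on different slides, so slide and hairpin cannot be told apart. Actb itself differed by −0.12 between the hairpins (limma adjusted p = 0.112). The contrast also shares the shActb_1 arrays, and the comparison of the second hairpin with shEGFP shares the control arrays. Values are therefore given side by side, and calls against shEGFP shared by the 2 hairpins are not counted.

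Against the shared controls, Acta2 stood at 4.42 with the first hairpin and 5.04 with the second, with 4.23 and 4.76 for Cnn1, 4.05 and 4.16 for Acta1 and 2.20 and 2.53 for Tagln. Of the 15 largest increases 2 differed between hairpins. Actg2 stood at 2.76 with the first and 5.29 with the second, a difference of 2.54 (limma adjusted p = 8.52e-05), and Myl9 at 3.12 and 4.33, a difference of 1.21 (limma adjusted p = 0.000202). Actc1, outside the 15 and dark on the control arrays, was at −2.46 and −2.54 with the second hairpin and −4.94 and −5.49 with the first, a difference of 2.71 (limma adjusted p = 0.000564). These 3 were larger with the second hairpin, but of the 34 probes called higher that differed between hairpins 14 were larger with the second and 20 smaller. These 34 were chosen by a call on shActb_1 values that the contrast contains. That favours a smaller value with the second hairpin, so nothing is read from their split.

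Among the 15 largest decreases 7 differed between hairpins, each smaller in size with the second. Dkk1 was at −3.32 with the first and −1.40 with the second (difference 1.92, limma adjusted p = 9.08e-05), Bmp4 at −2.69 and −1.01 (1.68, adjusted p = 0.000114), Meox2 at −3.39 and −2.03 (1.36, adjusted p = 0.000399) and Cebpd at −2.35 and −1.05 (1.30, adjusted p = 0.000164). Pde1a was at −2.51 and −0.30, Prg4 at −2.45 and −0.64 and Plxdc1 at −2.40 and −1.30. The Meox2 difference was not called with normexp background correction. Adamts5 (−2.78 and −3.05) and Rgs2 (−2.38 and −1.95) were not called as different. The probes of Lox disagreed, since the one named above (−3.62 and −2.92) was not called and the other (−3.80 and −2.42) was (difference 1.37, limma adjusted p = 0.00351). Id2, which fell with the first hairpin, was higher with the second by 2.15 in the direct contrast (limma adjusted p = 0.000678), and Sfrp2 stood against shEGFP at −1.57 and 0.26. These genes were ranked on the first hairpin's own arrays, which this contrast also uses, and that favours a smaller size with the second hairpin.

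**Figure D4:**
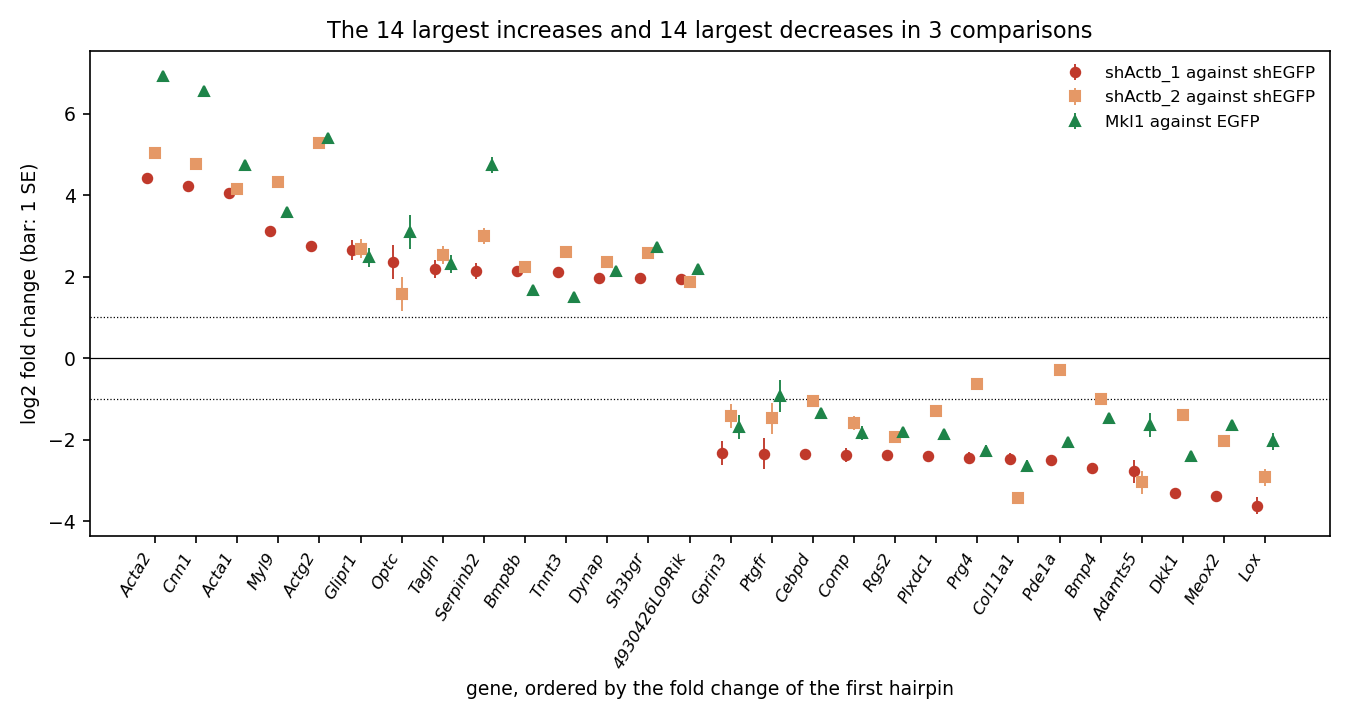
Log2 fold change with its SE (vertical axis) of the 14 largest increases and 14 largest decreases of shActb_1 against shEGFP (red circles), beside shActb_2 against shEGFP (orange squares, which share the control arrays) and Mkl1 against EGFP (green triangles, on other arrays). With Mkl1 all 14 increases lie above 0 and all 14 decreases below 0, and Acta2 and Cnn1 are highest in Mkl1, at 6.93 and 6.56.

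The group labelled Mkl1 was measured against EGFP on arrays that the hairpin comparison does not use. Mkl1 itself was not called there, at 0.17 and 0.20 on its 2 probes (limma adjusted p = 0.312 and 0.12), and whether these probes lie in the introduced sequence is not given in the sources used here. Of 35744 probes tested there, 462 were called higher (1.29%) and 533 lower (1.49%). Of the 176 probes called higher with shActb_1, 167 were tested on those arrays and 89 were called higher (53.3% of them, and 19.3% of the 462) and 0 lower. Of the 406 called lower, 351 were tested, of which 215 were called lower (61.3%, and 40.3% of the 533) and 3 higher. The median log2 fold change in Mkl1 was 1.15 over the first set and −1.17 over the second, against −0.03 over all probes tested there. All 15 largest increases were called higher with Mkl1, and 14 of the 15 largest decreases lower, the exception being Ptgfr at −0.92.

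A contrast of the 2 effects, shActb_1 minus shEGFP against Mkl1 minus EGFP, found a difference for 184 of 38651 probes (0.476%), 64 of them with a higher value for the hairpin and 120 with a lower one. The split changed with the scaling, from 34.8% higher to 44.9% with normexp background correction and 8.33% of 60 calls with median scaling, which moved the median of all probes in this contrast by −0.12. The count ran from 62 without Mkl1 replicate 2 to 1009 without EGFP replicate 2. It was 69 without Mkl1 replicate 1, 87 without shEGFP replicate 1, 95 without shActb_1 replicate 2 and 362 without EGFP replicate 1.

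Of the 176 probes called higher, 28 differed from the Mkl1 effect, 20 of them with the larger value for the hairpin, among them all 3 probes of Vps25, and 8 with the smaller. These 28 were chosen by a call on shActb_1 and shEGFP values that the contrast contains, which favours a larger hairpin value, so nothing is read from their split. Acta2, Cnn1, Actg2, Serpinb2, Actc1 and Lce1g were among the 8, rising in both but less with the hairpin. Serpinb2 stood at 2.14 with shActb_1 and 4.74 with Mkl1, Actc1 at 2.07 and 5.04 and Lce1g at 1.85 and 5.32. Their differences were −2.61, −2.96 and −3.46, and Actc1 and Lce1g were dark on both shEGFP arrays. Acta2 stood at 4.42 with shActb_1 and 6.93 with Mkl1 (difference −2.51, SE 0.12, limma adjusted p = 0.000538), Cnn1 at 4.23 and 6.56 (−2.33, SE 0.10, adjusted p = 0.000538) and Actg2 at 2.76 and 5.41 (−2.66, adjusted p = 0.00151). The controls of Acta2 were at 1.26 and 1.20 with shEGFP and at −0.61 and −0.48 with EGFP. Its level was 5.71 and 5.58 with shActb_1 and 6.39 and 6.38 with Mkl1. Acta1 (4.05 and 4.74), Myl9 (3.12 and 3.60) and Tagln (2.20 and 2.32) were not called as different. Myh11, dark on all 4 hairpin arrays compared here, was at −2.62 and −2.70 with Mkl1 against −6.69 and −5.71 with EGFP. Pdlim3 moved in opposite directions, −1.05 with shActb_1 and 1.93 with Mkl1 (difference −2.98, adjusted p = 0.00477).

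Of the 406 probes called lower, 18 differed from the Mkl1 effect, all with the lower value for the hairpin. They too were chosen by a call on shActb_1 and shEGFP values that the contrast contains. That favours a larger decrease with the hairpin, so nothing is read from their direction. Meox2 and Bmp4 were among the 18. Meox2 stood at −3.39 with shActb_1 and −1.63 with Mkl1 (difference −1.76, limma adjusted p = 0.0105) and Bmp4 at −2.69 and −1.46 (−1.22, adjusted p = 0.0129). The Bmp4 difference was not called with median scaling or without shEGFP replicate 1, Mkl1 replicate 1 or Mkl1 replicate 2 (−1.22, −1.19 and −1.25, adjusted p = 0.0537, 0.0535 and 0.0591). Dkk1 at −3.32 and −2.41 was not called as different. Lox was not called on the probe at −3.62 and −2.04 but was on the other, at −3.80 and −1.72 (difference −2.08, limma adjusted p = 0.0354).

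The position of each group among all 12 arrays was then described, a step added after the values had been seen, with levels set across 3 slides and no test. Of the 176 probes called higher, the shEGFP arrays lay below all 10 others for 83 and the shActb_1 arrays above all 10 others for 34. Of the 406 called lower, shActb_1 lay below all 10 others for 195 and shEGFP above all 10 others for 84. The mean of the EGFP controls, which carry no hairpin, was nearer to shActb_1 than to shEGFP for 82 of the 176 and 64 of the 406.

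Vps25, Lsm5, Mtmr12 and Mycl were picked from that description after their values were seen. Vps25 was at 0.44 and 0.47 with shEGFP, at 2.24 and 2.25 with shActb_1 and between 2.14 and 2.60 on all 10 arrays other than shEGFP. Lsm5, of the spliceosome's LSM ring, was at 2.10 and 2.27 with shEGFP and between 3.27 and 3.73 elsewhere. Mtmr12, a myotubularin, was at 1.07 and 1.17 with shEGFP and between 2.17 and 2.45 elsewhere. For these genes the call set 2 control arrays apart from every other array. With Mkl1 they differed from EGFP by 0.07, 0.06 and −0.01.

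Mycl, by contrast, was at −0.93 on both shActb_1 arrays, between −2.61 and −2.56 with shEGFP and no higher than −2.10 elsewhere, so the shActb_1 arrays stood apart. Meox2 showed the same on the lower side, at −4.75 and −4.89 with shActb_1 and no lower than −3.52 on any other array. Bmp4 was at −0.25 and −0.43 with shActb_1 and no lower than 0.23 elsewhere. Nras had 2 probes called higher (1.28 and 1.36), on which shEGFP and shActb_2 were both low, and 1 at 0.06, so its probes disagree. Igsf9 was at −0.54 and −0.50 with shEGFP and 1.41 and 1.48 with shActb_1 on the probe called (1.96), with no other array above 0.46, but its probe of the highest signal differed by 0.39 without a call. Their part in the counts above was not tested.

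**Figure D5:**
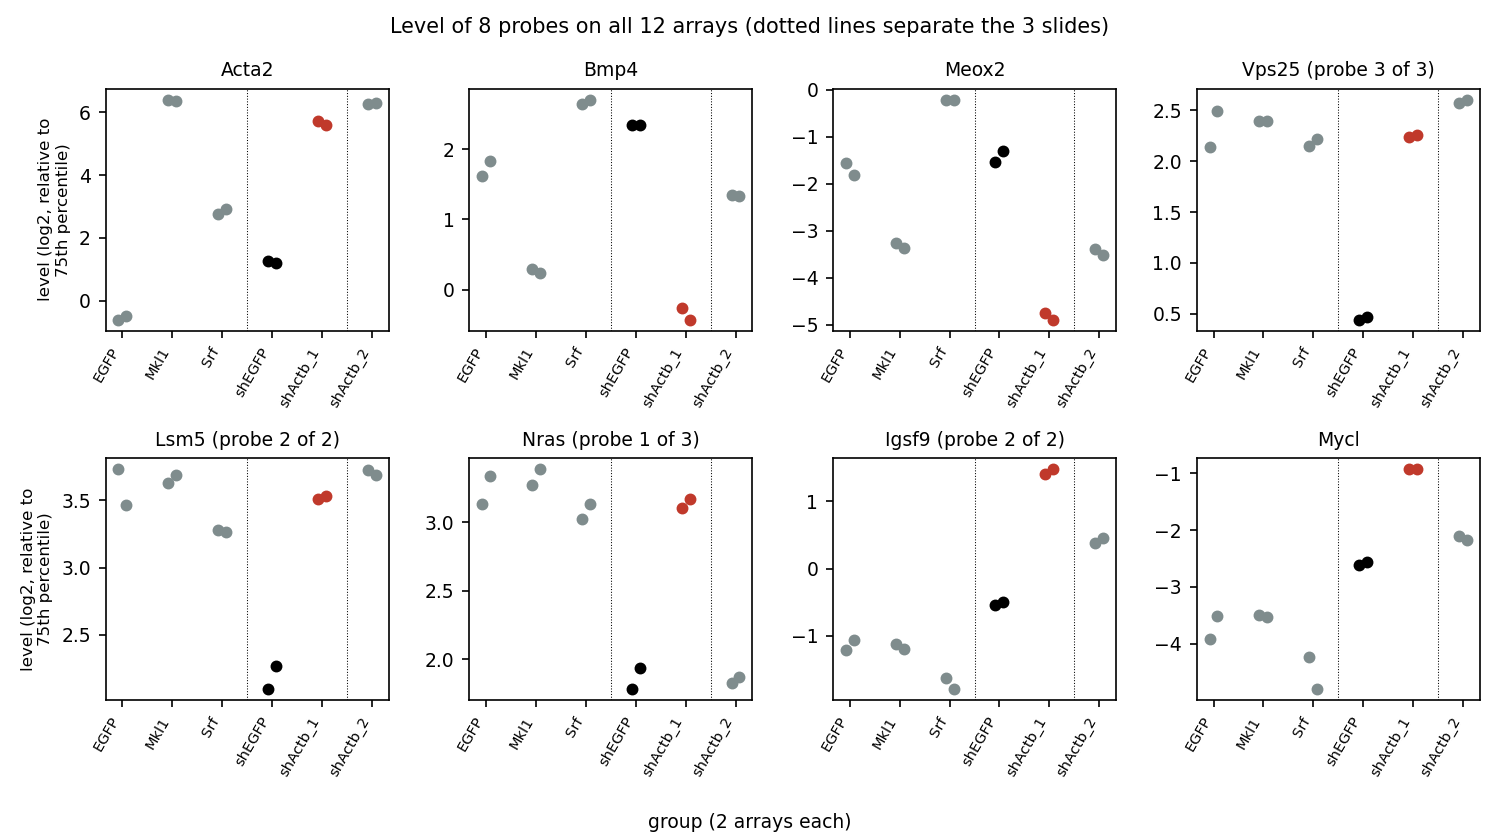
Level (log2 signal minus the array's 75th percentile, vertical axis) of 8 probes on all 12 arrays by group, with shEGFP in black, shActb_1 in red, the other groups in grey and dotted lines between the 3 slides. The shEGFP arrays stand alone at the bottom for Vps25 and Lsm5, shActb_1 stands alone at the bottom for Bmp4 and Meox2 and at the top for Mycl, and for Acta2 shActb_1, shActb_2 and Mkl1 all stand at 5.58 or higher.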

How the data were processed

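RNA of mouse NPCs was labelled with Cy3 and hybridised to 1-colour Agilent arrays. Feature Extraction turned each scan into spot values, and the authors deposited its output as it stood. Per the file headers the column used is the processed signal, an intensity from which background has been subtracted but which has not been made comparable across arrays. The authors also deposited a log2 table. Each of its columns equals log2 of the processed signal less 1 constant (within 0.01 for 100% of probes), and it was tried as an alternative.

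Control and outlier spots were left out, log2 was taken, spots of a probe were averaged and each array's 75th percentile was subtracted. Of 55681 probes 28026 (50.3%) received a symbol by matching accessions, without versions, to RefSeq, for 21154 genes. Probes well above background on both arrays of at least 1 group were tested with limma 3.58.1 in R 4.3.3, in 1 fit over all 12 arrays with 1 mean per group, two-sided, with Benjamini-Hochberg adjustment. A bound for a dark group takes, per array, the higher of the lowest signal among probes well above background and the probe's own. Figures and tables used Python 3.11.15.

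The genes named are 12 fixed genes, the 15 largest changes in each direction that were well above background on all 4 arrays, the 6 largest bounds in each direction and the called members of the lists, or up to 3 others where none was called. Other uncalled list members given with values were chosen after their values were seen. Of the genes the rule names, 1 is not reported here. The members and lists were chosen with earlier results of these data known, and the lists are described by counts and medians only. On simulated data with 200 probes changed by 2 on the log2 scale, 85% were recovered for the first hairpin among 36213 probes and 2.86% of the calls were false, with 80.5% and 2.42% for the contrast between hairpins (35408 probes) and 65.5% and 5.76% for the contrast with the Mkl1 effect (38651 probes). The simulated noise was normal and independent between arrays. The calls of the first hairpin had smaller medians, 1.32 for higher and −1.42 for lower probes. These shares are therefore not error rates of the calls given here. Alternatives were another background correction (normexp, offset 50, on the median spot signal, as the columns used hold no mean), scaling, filter, threshold, sample set, variance model and replicate block, and leaving out each array.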

Additional observations from a re-analysis of the deposited data

Results flagged for a closer look

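The first and second Actb hairpins differed in level at 1781 probes by the direct contrast in limma, with hairpin and slide not to be told apart. The effect of the first hairpin differed from that of the group labelled Mkl1 at 184 probes, by an interaction contrast between effects that were each measured within a slide.

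Of the named genes in that contrast, Acta2, Cnn1 and Actg2 rose in both and less with the hairpin, by −2.51, −2.33 and −2.66 on the log2 scale. Serpinb2, Actc1 and Lce1g did so too, by −2.61, −2.96 and −3.46. Over all 184 probes, 64 had the higher value with the hairpin and 120 the lower. Pdlim3 differed by −2.98, with opposite signs in the hairpin and Mkl1 effects. Vps25 differed by 1.62 (the probe of its 3 with the lowest p), Nras by 1.44 on one of its 3 probes and Igsf9 by 1.98 on one of its 2 probes. The call was lost with median scaling for Vps25 and Nras, and for Nras also without shActb_1 replicate 2, shEGFP replicate 1, Mkl1 replicate 1 or Mkl1 replicate 2 (limma adjusted p = 0.0542, 0.0521, 0.0563 and 0.0571). For Vps25 the shEGFP arrays stood below the other 10, for Nras shEGFP and shActb_2 stood below the rest, and for Igsf9 shActb_1 stood above the other 10.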

How the results depend on the processing

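The count of 582 probes became 250 with normexp background correction (101 higher, 149 lower; 248 shared with the main calls), 3410 with the adjusted p alone (1919 higher, 1491 lower) and 967 with a fold over 2 alone (709 lower). Leaving out 1 array gave 501 to 668 calls, 131 to 279 of them higher and 304 to 493 lower, of which 366 to 400 were among the 582 in the same direction. The 1781 probes that differed between hairpins became 418 with normexp and 1120 with probes well above background on all arrays compared, and 1553 to 2579 without 1 array. The 184 probes that differed from the Mkl1 effect became 77 without the filter and 60 with median scaling, and 62 to 1009 without 1 array. The cause of these changes was not tested, apart from fewer probes tested under the stricter filter. The other alternatives stayed within 1.5 times of each count, and no result reversed.

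Of 73 called genes named, 45 kept their call under every alternative that gave a value, 20 lost it with normexp, 15 without shActb_1 replicate 2 and 11 without shEGFP replicate 1 and 11 without shEGFP replicate 2. The medians of 4 lists near 0 (Srf and cofactors, pluripotency, interferon, chemokines and serpins) changed sign under 1 or 2 of 13 alternatives. The replicate numbers were not shown to pair the arrays, since the duplicate differences of shEGFP and shActb_1 correlated at r = 0.003, and a replicate block gave 591 calls (173 higher, 418 lower). Slide as a random block was not run, because each group lies on 1 slide, and as a fixed term it leaves this contrast as it is by construction. Probes near background limit how exactly the decreases can be sized, since 89 of the 406 end below detection on both shActb_1 arrays.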
